A study of Mus musculus with 17 samples.

Results

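The genes described here are 50 genes of mitosis and chromosome segregation, the machinery that condenses, aligns, separates and divides the chromosomes of a cell. They are a fixed list of gene symbols, drawn up with earlier results of these data known. All 50 had a row among the 17140 genes of both early HCC tables and the 18185 genes of the Kupffer cell table. Poly(A) RNA of mouse liver cells was sequenced in 17 libraries. Early hepatocellular carcinoma (HCC) cells of DEN-treated mice were labelled KO (3 libraries) or WT (3 libraries) for Mef2d, a gene for a MADS-box transcription factor, and DEN is not spelled out in the labels. A further 3 libraries are of normal liver cells, whose genotype is labelled Normal. Kupffer cells, macrophages that live in the liver, were likewise of DEN-induced mice, from material abbreviated PME in the labels, and carry the genotype labels KC2 (4 libraries) and KC1 (4 libraries). The labels give no age, strain, driver line or description of the Mef2d allele, and nothing in them ties the replicates of a group to different mice. The p-values therefore reflect library-to-library spread alone, which may be technical.

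Cyclin B bound to the kinase Cdk1 starts mitosis, and Plk1 and the Aurora kinases build the spindle and correct its attachments. Kinetochores link centromeres to microtubules, and the spindle assembly checkpoint holds the anaphase-promoting complex (APC/C) back until every kinetochore is attached. Cdc20 then activates the APC/C, which destroys securin and cyclin B, separase cuts cohesin, and the central spindle guides cytokinesis. Most of these genes are transcribed in G2 and mitosis, through promoters with a cell cycle genes homology region (CHR), which MuvB complexes with B-Myb or FOXM1 bind, and CCAAT boxes, which NF-Y binds. Adult hepatocytes seldom divide, and the genes are widely used as a proliferation signature in liver tumours.

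Library totals ran from 15353249 to 18637765 expected counts. Mef2d itself, the gene labelled as knocked out, had 69.0, 63.6 and 65.8 CPM (counts scaled to library size, with TMM factors) in KO cells, 99.04, 97.3 and 103.6 CPM in WT cells and 62.0, 51.8 and 57.1 CPM in normal liver cells. It was lower in KO than in WT cells (log2 fold change -0.60 ± 0.04, adjusted p = 7.17e-09) but was still present there. The labels call these cells KO. However, the worksheet of the deposited KO and WT table has a name that reads in part "H22 C1C17 AML sh vs ctrl", which is not explained. Whether the Mef2d level reflects a deletion that leaves part of the gene or another kind of perturbation was not tested, and KO stands below for the libraries so labelled. Hepatocyte markers were near 0 in early HCC cells: Alb averaged 0.0959 CPM in KO cells, 0.131 CPM in WT cells and 2.40 CPM in normal liver cells. The Hnf4a means were 0.324 CPM (KO), 0.150 CPM (WT) and 119 CPM (normal). Cholangiocyte markers summed to 1755, 1791 and 1817 CPM in KO cells, 1325, 1342 and 1424 CPM in WT cells and 1770, 1728 and 1759 CPM in normal liver cells, from different genes: Spp1 averaged 1717 CPM in KO cells, 1333 CPM in WT cells and 164 CPM in normal liver cells. Krt19 averaged 32.1 CPM in KO cells, 15.2 CPM in WT cells and 1083 CPM in normal liver cells. What cells the early HCC and normal liver libraries hold was not settled by these values, and the groups are called by their labels. Summed markers of macrophages, endothelial cells and lymphocytes were each at or below 19.4 CPM in every one of these 9 libraries. Only 8 of 12, 9 of 10 and 6 of 13 of these markers had a row, in the same order. These tables list only genes with a count in KO or WT cells, so the level of the others in normal liver cells is unknown. Monocyte and neutrophil markers summed to at most 3.32 CPM in KO cells and 7.21 CPM in WT cells. In normal liver cells they summed to 350.1 to 366.3 CPM. Of the 5 tested between WT and normal liver cells, 3 were higher in WT and 1 was lower. Their log2 fold changes had a lowest value of -11.3 and a median of 3.33. The part of such marker differences in the results was not tested. Because the RNA is from bulk samples, fewer cells of a type and less RNA per cell cannot be told apart.

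Promoter letters show what many of these genes have in common apart from their function. RefSeq promoters (GRCm38.p6, the assembly of mm10) were matched for 41 of the 50 genes, and each covers 250 bases before to 50 after an annotated start. The 9 others are Ccna2, Cdc25c, Foxm1, Aurkb, Incenp, Spc24, Tpx2, Dlgap5 and Kif20a. The CHR letters TTTGAA, read on either strand (TTCAAA), were in 31 of the 41 (75.6%), against 18.5% of 17492 protein-coding genes with a promoter. CCAAT, also read on the other strand as ATTGG, was in 30 of 41 (73.2%), against 42.3% of the same genes. The CHR variant TTTAAA, which reads the same on both strands, was in 9 of 41, against 13.8% of the same genes. The letters also held a position. Of 44 TTTGAA matches in the 45 promoters of these 41 genes, 33 (75.0%) began within 50 bases of the start, against 22.2% of matches in all promoters. The median offset of the 44 was -1.5 bases. Ect2, Prc1, Bub3 and Cep55 have 2 annotated starts with overlapping windows, so the same letters were counted at each start. CCAAT matches had a median offset of -62 bases. A match is a description of letters, not a bound site.

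The stretches below run from 120 bases before to 30 bases after the start and read 5′ to 3′ along each gene, with TTTGAA and CCAAT, on either strand, in capitals. Ccnb2, Cenpa, Kif23 and Kif15 are shown because they had the largest falls in KO cells among genes with a CHR match. Bub3 and Prc1 are shown, at the first of 2 annotated starts, because they did not pass the test in that comparison.
Ccnb2, chr9:70421525-70421674, minus strand: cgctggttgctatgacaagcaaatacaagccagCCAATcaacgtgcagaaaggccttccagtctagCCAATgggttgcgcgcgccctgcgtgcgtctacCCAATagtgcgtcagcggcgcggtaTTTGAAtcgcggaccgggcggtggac
Cenpa, chr5:30666766-30666915, plus strand: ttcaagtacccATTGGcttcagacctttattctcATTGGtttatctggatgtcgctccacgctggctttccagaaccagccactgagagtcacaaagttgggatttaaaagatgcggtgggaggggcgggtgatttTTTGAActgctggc
Kif23, chr9:61946770-61946919, minus strand: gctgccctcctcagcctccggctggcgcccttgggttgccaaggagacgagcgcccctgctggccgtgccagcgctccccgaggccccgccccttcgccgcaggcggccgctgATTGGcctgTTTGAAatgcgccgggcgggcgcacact
Kif15, chr9:122950961-122951110, plus strand: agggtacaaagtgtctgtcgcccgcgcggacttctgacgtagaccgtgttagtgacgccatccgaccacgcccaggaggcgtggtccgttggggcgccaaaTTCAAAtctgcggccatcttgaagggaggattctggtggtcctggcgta
Bub3, chr7:131560250-131560399, plus strand: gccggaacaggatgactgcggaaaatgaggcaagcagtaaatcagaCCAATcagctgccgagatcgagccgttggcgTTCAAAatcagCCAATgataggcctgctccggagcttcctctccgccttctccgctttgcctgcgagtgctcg
Prc1, chr7:80294331-80294480, plus strand: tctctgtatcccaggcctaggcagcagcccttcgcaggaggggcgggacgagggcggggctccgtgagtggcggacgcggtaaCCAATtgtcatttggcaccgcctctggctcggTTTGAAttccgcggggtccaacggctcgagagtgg
All 6 stretches hold the CHR letters, and their first base, counted from the start, lies at 4 in Ccnb2, 16 in Cenpa, 2 in Kif23, -19 in Kif15, -43 in Bub3 and -5 in Prc1. A CCAAT box lies in 5 of these 6, and Kif15 has none in the printed stretch. The 4 genes with large falls were chosen for having the CHR letters, so their match is no finding. Over all 41, 28 of the 31 genes with TTTGAA were lower in KO than in WT cells, with a median log2 fold change of -0.61, and 10 of the 10 without it were lower, with a median of -0.52. No test was made of this difference.

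**Figure D1:**
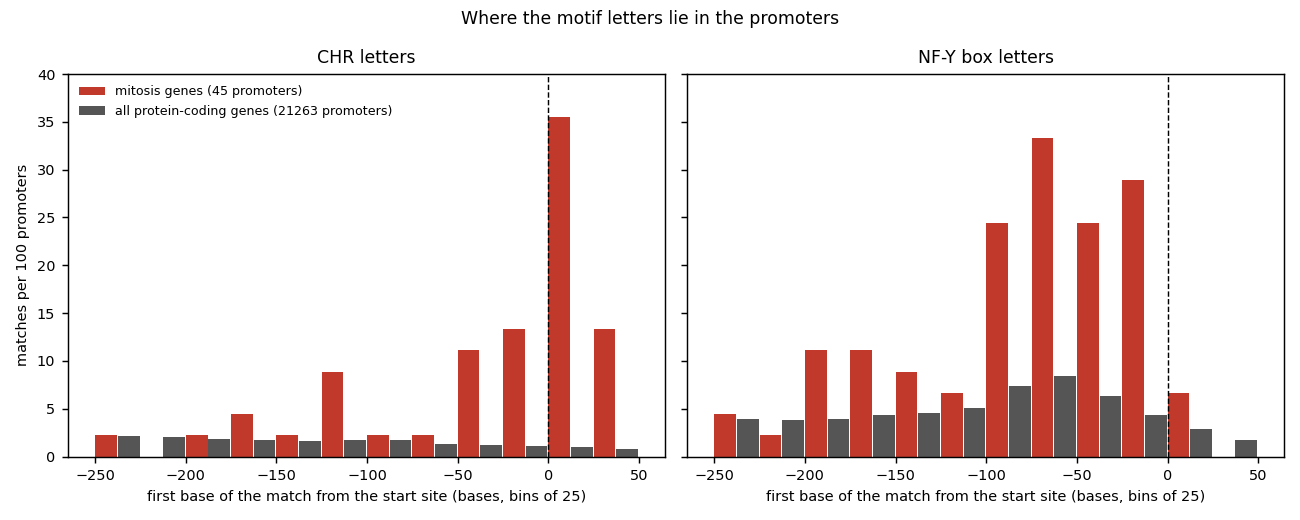
Matches of the CHR letters (left) and NF-Y box letters (right) per 100 promoters, in bins of 25 bases along the window from 250 bases before to 50 after the start (dashed line). Red bars are the 45 promoters of the mitosis genes and grey bars all 21263 promoters of protein-coding genes. CHR letters of the mitosis genes peak at 35.6 matches per 100 promoters in the bin that opens at the start, against 1.04 in all promoters.

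KO early HCC cells had lower levels of nearly all of these genes than WT early HCC cells. Of the 50, 47 fell and 1, Cdca8, rose, while Bub3 and Prc1 did not pass the test (edgeR quasi-likelihood F test, adjusted over all genes). Over all 12093 tested genes, 64.5% were called, 32.2% lower and 32.3% higher. The median log2 fold change of the 50 genes was -0.59, against -0.003 over all tested genes. Their summed level was 5309, 5391 and 5270 CPM in KO cells, against 8106, 7982 and 7860 CPM in WT cells. For 48 genes every KO library was below every WT library, for Cdca8 every one was above, and for Bub3 they overlapped, against 33.7% of all tested genes wholly below and 34.8% wholly above. Falls of at least 2-fold were seen for 3 genes, Ccnb2, Cenpa and Kif23, and 4.04% of all tested genes fell and 3.62% rose as much. All 47 falls held in every alternative fit that was run. Cholangiocyte markers moved the other way, with 4 of 4 tested higher in KO than in WT cells (median log2 fold change 1.16), and their part in the result was not tested.

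The second comparison set WT early HCC cells against normal liver cells. The normal liver libraries were not without these genes. All 50 averaged at least 10 CPM in them, and the median of the 50 means was 74.5 CPM, against 108.8 CPM in WT cells. In this comparison 35 of the 50 genes rose, 10 fell and 5 did not pass the test, with a median log2 fold change of 0.54. The background was high, with 43.9% of 12697 tested genes called higher and 43.3% lower, and a median of 0.014. Genes with counts in normal liver cells alone have no row, so the shares in both comparisons with normal liver cells leave them out. Rises of at least 2-fold were counted for 13 genes, against 20.3% of all tested genes, and none of the 50 fell as much, against 20.7%. Counts differed by role, with no test of that difference. All 7 centromere and kinetochore genes and 9 of 10 mitotic entry genes rose, while 4 of 8 central spindle genes fell, 3 rose and Kif20a did not pass. Median log2 fold changes were 1.01, 1.02 and -0.07 for these 3 roles. Set against the median of their chromosome, Kif20b (0.48), Cep55 (0.31) and Kif20a (0.56) of the central spindle role had a positive sign.

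KO early HCC cells were also set against the same normal liver libraries, so this comparison shares libraries with both others. Of the 50 genes, 21 were higher, 27 lower and 2, Spc25 and Kif4, not past the test, against 44.5% of 12657 tested genes called higher and 43.2% lower. The median log2 fold change was -0.10, against 0.022 over all tested genes. Mitotic entry genes had a median of 0.32 and central spindle genes one of -0.74, with 7 of these 8 lower. Rises of at least 2-fold were seen for 2 genes, Spc24 and Cdc25b, against 19.6% of all tested genes, and falls as large for 6, Kif23, Kif20b, Cep55, Hmmr, Ckap2 and Kif11, against 20.5%. Normal liver cells had a summed level of 5634, 5829 and 5591 CPM, a little above the 5309, 5391 and 5270 CPM of KO cells. Values of the members in the 3 groups follow by role.

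**Figure D2:**
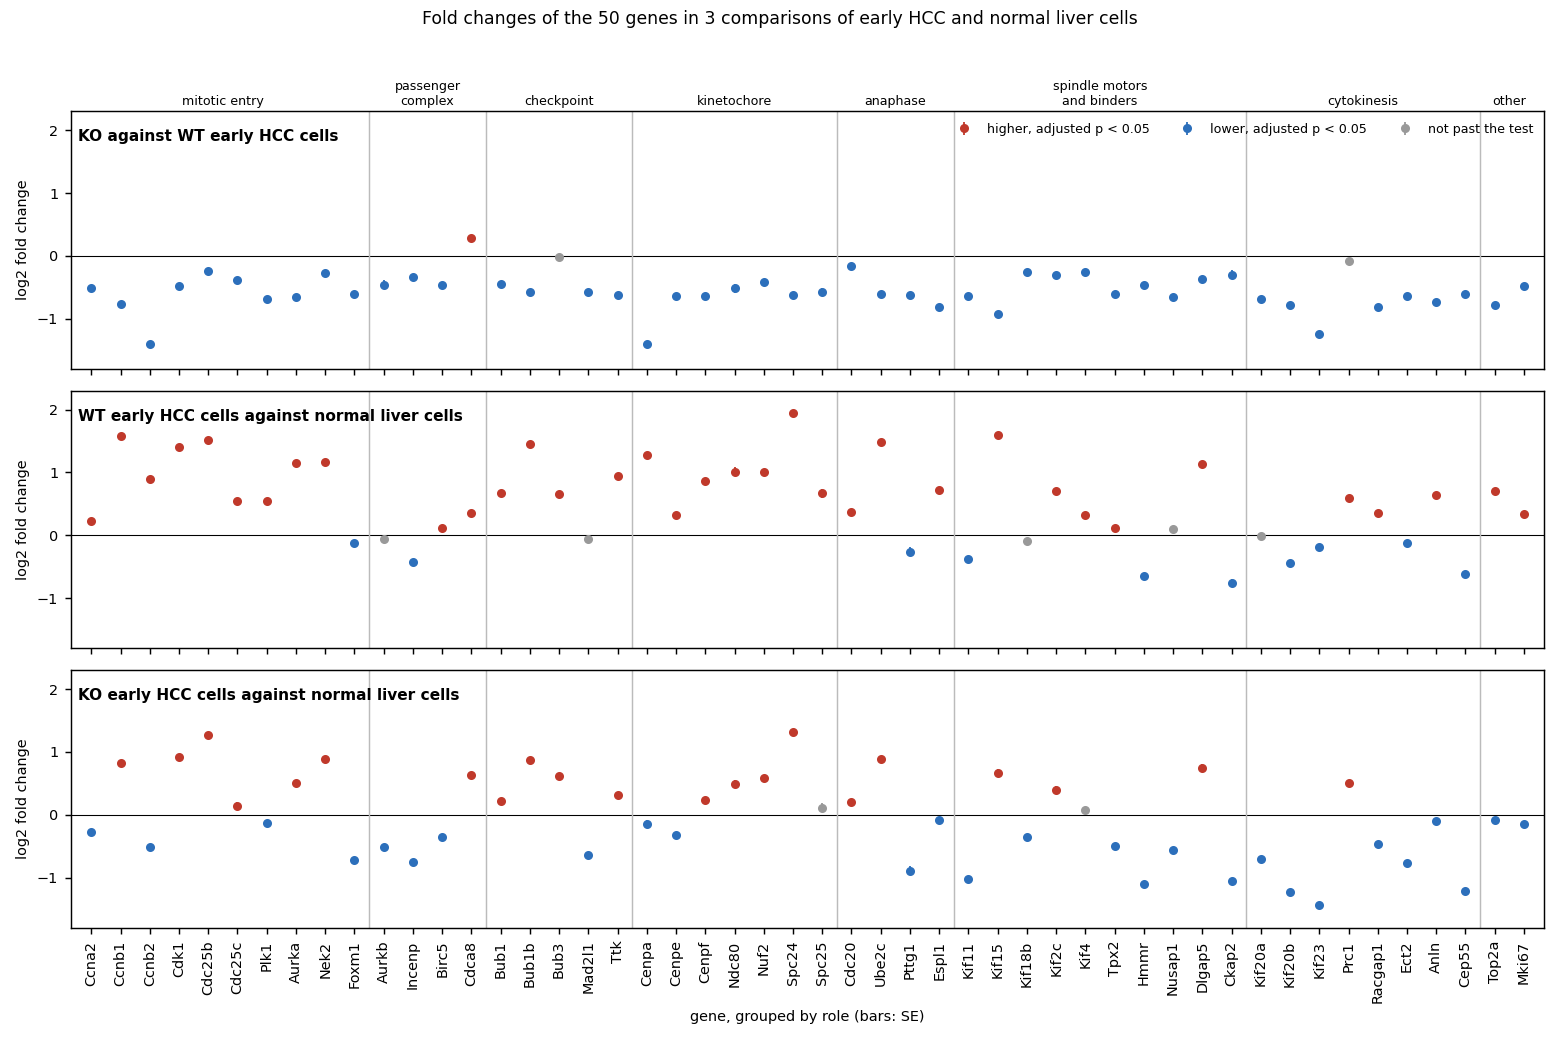
Log2 fold changes (vertical axes, bars SE, often smaller than the points) of the 50 genes, grouped by role, in 3 comparisons that share libraries. Red points passed the test and were higher, blue points passed and were lower, and grey points did not pass. In the top panel, 47 of 50 points are blue, and in the middle panel 35 are red.

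All 10 mitotic entry genes fell in KO against WT cells. Ccnb1, which encodes the main cyclin B partner of Cdk1, had 225.5, 234 and 241 CPM in KO cells, 400.2, 397 and 384 CPM in WT cells and 125, 139 and 132 CPM in normal liver cells. The 3 groups did not overlap, and WT libraries were the highest (KO against WT -0.76 ± 0.03, adjusted p = 4.23e-11; WT against normal 1.58 ± 0.04, adjusted p = 9.30e-16; KO against normal 0.82 ± 0.04, adjusted p = 2.51e-13). Here and below, values after a pair of groups are the log2 fold change ± SE, with n = 3 libraries in each group. Ccnb2, the cyclin B2 gene, had 42.6, 39.0 and 40.1 CPM in KO cells, 108, 105 and 109 CPM in WT cells and 58.4, 56.4 and 59.0 CPM in normal liver cells. KO libraries lay below both other groups, and WT libraries above both (KO against WT -1.40 ± 0.04, adjusted p = 5.43e-13; WT against normal 0.89 ± 0.04, adjusted p = 2.36e-12; KO against normal -0.51 ± 0.05, adjusted p = 6.72e-09). The other cyclin gene, Ccna2, whose product works in S phase and early mitosis, fell less in KO cells (-0.51 ± 0.03, adjusted p = 2.85e-09).

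Cdk1, the kinase that drives entry, had 176, 179 and 175 CPM in KO cells, 244, 244 and 246.5 CPM in WT cells and 92.15, 96.75 and 90.9 CPM in normal liver cells. Every early HCC library was above every normal library, with KO between the others (KO against WT -0.48 ± 0.03, adjusted p = 3.50e-09; WT against normal 1.40 ± 0.04, adjusted p = 1.77e-15; KO against normal 0.92 ± 0.04, adjusted p = 1.05e-14). Cdc25b, a phosphatase that activates Cdk1, had 77.2, 72.9 and 76.8 CPM in KO cells, 84.4, 91.7 and 90.7 CPM in WT cells and 30.95, 30.75 and 32.5 CPM in normal liver cells. It kept most of its rise over normal liver cells in KO cells (KO against WT -0.24 ± 0.04, adjusted p = 1.81e-04; WT against normal 1.51 ± 0.05, adjusted p = 2.16e-14; KO against normal 1.27 ± 0.05, adjusted p = 3.99e-15). Its relative Cdc25c fell in KO against WT cells (-0.39 ± 0.06, adjusted p = 3.24e-05) and was higher in WT than in normal liver cells (0.54 ± 0.06, adjusted p = 2.82e-07). Against normal liver cells KO was higher too (0.14 ± 0.06, adjusted p = 0.0242), a call lost without KO replicate 1 (adjusted p = 0.137), without normal replicate 1 (adjusted p = 0.0617) and without normal replicate 3 (adjusted p = 0.0772).

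Plk1, the Polo kinase, had 63.1, 63.4 and 62.8 CPM in KO cells, 95.5, 103 and 103 CPM in WT cells and 70.0, 65.4 and 71.8 CPM in normal liver cells. WT libraries stood above the other groups, and KO was slightly below normal (KO against WT -0.68 ± 0.04, adjusted p = 1.46e-09; WT against normal 0.55 ± 0.05, adjusted p = 1.01e-08; KO against normal -0.13 ± 0.04, adjusted p = 0.01000). Aurka, the Aurora kinase of the centrosome and spindle poles, had 83.7, 82.8 and 85.6 CPM in KO cells, 131, 128.5 and 134 CPM in WT cells and 59.9, 60.6 and 58.1 CPM in normal liver cells. All groups were apart, with normal lowest (KO against WT -0.65 ± 0.04, adjusted p = 4.86e-10; WT against normal 1.15 ± 0.04, adjusted p = 6.17e-14; KO against normal 0.50 ± 0.04, adjusted p = 7.04e-10). Nek2, a kinase of centrosome separation, had 119.5, 122 and 123 CPM in KO cells, 145, 146 and 145.5 CPM in WT cells and 65.2, 65.7 and 65.4 CPM in normal liver cells. It fell little in KO cells (-0.27 ± 0.03, adjusted p = 4.15e-06), and both early HCC groups were above normal (WT against normal 1.16 ± 0.04, adjusted p = 2.14e-14; KO against normal 0.89 ± 0.04, adjusted p = 2.21e-14). Foxm1, the transcription factor of G2 and mitotic genes, had 67.1, 67.9 and 66.6 CPM in KO cells, 97.15, 102 and 107 CPM in WT cells and 114, 106 and 114 CPM in normal liver cells. It differed from most entry genes in that normal libraries were not the lowest (KO against WT -0.61 ± 0.04, adjusted p = 6.41e-09; KO against normal -0.72 ± 0.04, adjusted p = 2.95e-12). WT and normal libraries overlapped (-0.12 ± 0.05, adjusted p = 0.0257), and that call was lost without any 1 of WT replicates 1 and 2 and normal replicates 1 and 3 (adjusted p = 0.0746 to 0.157).

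**Figure D3:**
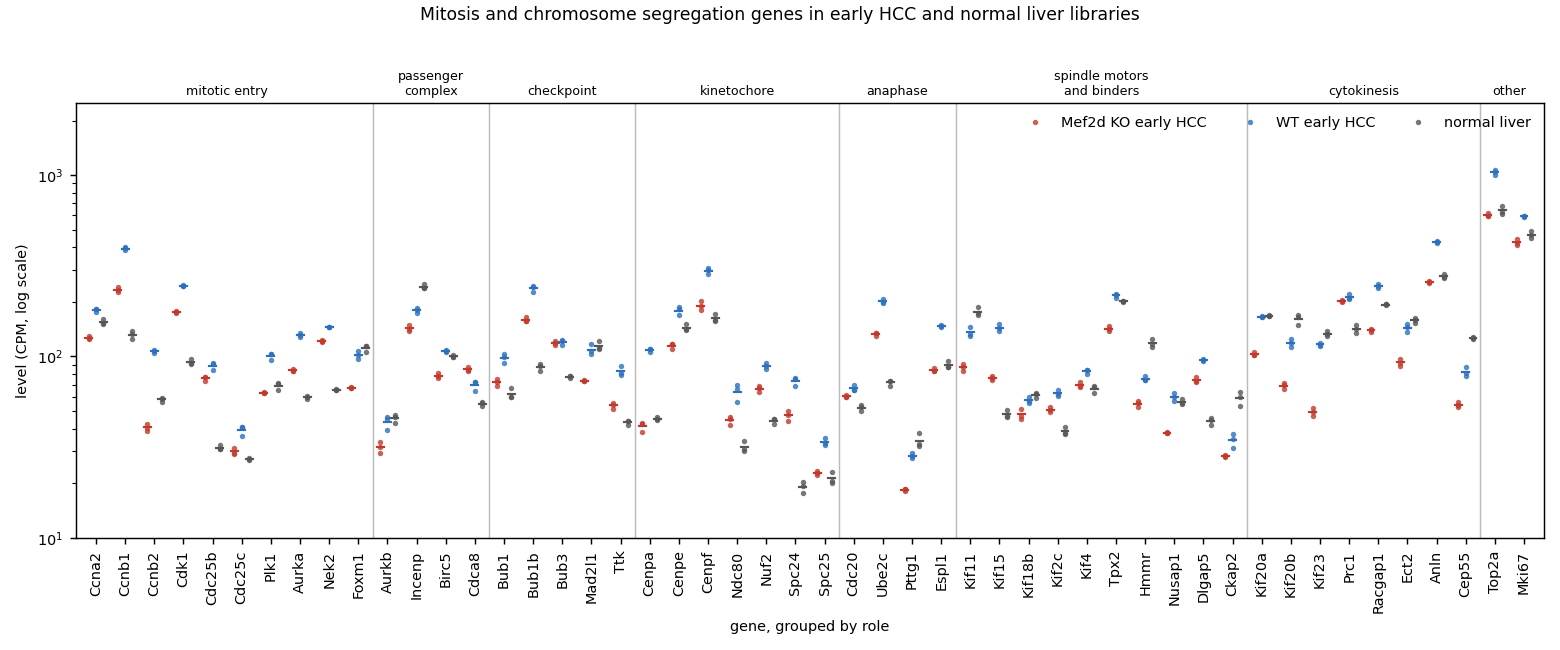
Level of each of the 50 genes in CPM (log scale) in every early HCC and normal liver library, with points for libraries and short lines for group means. From left to right within a gene stand Mef2d KO early HCC, WT early HCC and normal liver cells. WT points are above KO points for 48 genes, with Cdca8 the reverse and Bub3 overlapping.

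The chromosomal passenger complex corrects faulty attachments and later drives cytokinesis, and 3 of its 4 genes fell in KO against WT cells. Aurkb, its kinase, had 29.4, 31.85 and 33.8 CPM in KO cells, 39.2, 46.2 and 45.1 CPM in WT cells and 46.4, 43.0 and 47.3 CPM in normal liver cells. KO libraries were below both other groups (KO against WT -0.46 ± 0.07, adjusted p = 2.17e-05; KO against normal -0.52 ± 0.06, adjusted p = 9.69e-08), while WT and normal libraries overlapped (-0.06 ± 0.06, adjusted p = 0.393). Incenp, the scaffold, had 139, 149 and 141 CPM in KO cells, 174, 186 and 181 CPM in WT cells and 251, 237 and 238 CPM in normal liver cells. It was highest in normal liver cells (KO against WT -0.34 ± 0.04, adjusted p = 1.48e-06; WT against normal -0.42 ± 0.04, adjusted p = 3.45e-08; KO against normal -0.76 ± 0.04, adjusted p = 3.21e-13). Birc5 (survivin) fell in KO against WT cells (-0.46 ± 0.04, adjusted p = 3.81e-08), and its small rise in WT against normal cells (0.11 ± 0.04, adjusted p = 0.0167) was lost without normal replicate 3 (adjusted p = 0.0729). Cdca8 (borealin) had 83.0, 84.7 and 86.9 CPM in KO cells, 64.4, 72.1 and 72.2 CPM in WT cells and 56.2, 53.6 and 55.1 CPM in normal liver cells. It was the only gene of the 50 called higher in KO than in WT cells (KO against WT 0.28 ± 0.05, adjusted p = 8.62e-05; WT against normal 0.35 ± 0.05, adjusted p = 7.76e-06; KO against normal 0.63 ± 0.04, adjusted p = 3.18e-11). Set against the median of its chromosome, the difference between KO and WT cells had the opposite sign (-0.20).

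Checkpoint genes fell in 4 of 5 cases between KO and WT cells. Bub1, a kinase of the checkpoint, had 75.2, 72.4 and 68.8 CPM in KO cells, 103, 98.99 and 92.6 CPM in WT cells and 59.55, 67.3 and 59.4 CPM in normal liver cells. All groups were apart, with normal lowest (KO against WT -0.45 ± 0.05, adjusted p = 4.61e-07; WT against normal 0.67 ± 0.05, adjusted p = 4.55e-09; KO against normal 0.22 ± 0.05, adjusted p = 6.28e-04). Bub1b, which encodes the BubR1 subunit of the mitotic checkpoint complex, had 156, 165 and 158 CPM in KO cells, 245, 241 and 228 CPM in WT cells and 83.0, 90.8 and 88.7 CPM in normal liver cells. WT libraries were highest and normal lowest (KO against WT -0.58 ± 0.04, adjusted p = 1.96e-09; WT against normal 1.45 ± 0.04, adjusted p = 6.73e-15; KO against normal 0.87 ± 0.04, adjusted p = 1.33e-13). Bub3, which recruits both to kinetochores, had 118, 116 and 121 CPM in KO cells, 116, 122 and 123 CPM in WT cells and 75.8, 78.2 and 77.6 CPM in normal liver cells. KO and WT libraries overlapped and did not pass the test (-0.02 ± 0.04, adjusted p = 0.597), while both were above normal (WT against normal 0.65 ± 0.04, adjusted p = 1.80e-10; KO against normal 0.62 ± 0.04, adjusted p = 6.81e-12). Mad2l1, the inhibitor that binds Cdc20, had 74.0, 73.4 and 73.3 CPM in KO cells, 117, 108 and 103 CPM in WT cells and 112, 121 and 111 CPM in normal liver cells. Here KO was lowest and WT overlapped normal (KO against WT -0.57 ± 0.04, adjusted p = 1.94e-08; WT against normal -0.06 ± 0.05, adjusted p = 0.249; KO against normal -0.64 ± 0.04, adjusted p = 2.87e-11). Ttk, the Mps1 kinase that starts checkpoint signalling, fell in KO against WT cells (-0.63 ± 0.05, adjusted p = 2.27e-08) and was higher in WT than in normal liver cells (0.94 ± 0.05, adjusted p = 2.39e-11).

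Centromere and kinetochore genes all fell in KO against WT cells and all rose in WT against normal liver cells. Cenpa, the histone H3 variant that marks centromeres, had 42.4, 42.7 and 38.45 CPM in KO cells, 106, 109.7 and 109.9 CPM in WT cells and 44.7, 45.2 and 46.3 CPM in normal liver cells. WT libraries stood far above the others, and KO was close to normal (KO against WT -1.40 ± 0.05, adjusted p = 9.53e-13; WT against normal 1.27 ± 0.04, adjusted p = 2.58e-14; KO against normal -0.14 ± 0.05, adjusted p = 0.0170). The last of these calls was lost without KO replicate 3 (adjusted p = 0.109). Spc24, a subunit of the Ndc80 complex that holds microtubule ends, had 47.65, 49.9 and 44.3 CPM in KO cells, 74.7, 76.1 and 68.5 CPM in WT cells and 19.35, 20.4 and 17.6 CPM in normal liver cells. It had the largest rise of the 50 over normal liver cells (KO against WT -0.63 ± 0.05, adjusted p = 4.05e-08; WT against normal 1.94 ± 0.06, adjusted p = 1.28e-14; KO against normal 1.31 ± 0.06, adjusted p = 3.92e-13). The other 3 Ndc80 complex genes, Ndc80, Nuf2 and Spc25, had log2 fold changes of -0.52, -0.42 and -0.57 in KO against WT cells, and 1.01, 1.01 and 0.67 in WT against normal liver cells. Spc25 had 23.5, 22.2 and 22.9 CPM in KO cells, 35.6, 33.2 and 32.4 CPM in WT cells and 20.7, 23.1 and 19.95 CPM in normal liver cells, and its KO and normal libraries overlapped (0.11 ± 0.07, adjusted p = 0.146). The kinesin Cenpe and the outer kinetochore protein gene Cenpf both fell by 0.64 on the log2 scale in KO against WT cells, and were higher by 0.33 and 0.87 in WT than in normal liver cells.

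The 4 anaphase genes all fell in KO against WT cells. Cdc20, the activator of the APC/C, had 59.6, 59.6 and 61.4 CPM in KO cells, 69.8, 65.6 and 65.5 CPM in WT cells and 53.7, 49.8 and 52.75 CPM in normal liver cells. It had the smallest fall of the 47 (KO against WT -0.16 ± 0.04, adjusted p = 0.00434; WT against normal 0.37 ± 0.05, adjusted p = 1.88e-06; KO against normal 0.21 ± 0.04, adjusted p = 2.31e-04). Ube2c, the ubiquitin-conjugating enzyme of the APC/C, had 130.4, 134 and 134 CPM in KO cells, 199, 197 and 208 CPM in WT cells and 73.6, 73.6 and 68.5 CPM in normal liver cells. Groups were apart in the order normal, KO, WT from low to high (KO against WT -0.61 ± 0.04, adjusted p = 8.33e-10; WT against normal 1.49 ± 0.04, adjusted p = 3.08e-15; KO against normal 0.89 ± 0.04, adjusted p = 6.95e-14). Pttg1 (securin), the inhibitor of separase, had 18.6, 18.1 and 18.5 CPM in KO cells, 28.2, 29.3 and 27.6 CPM in WT cells and 32.85, 31.9 and 37.7 CPM in normal liver cells. Normal libraries were highest (KO against WT -0.63 ± 0.06, adjusted p = 2.79e-07; WT against normal -0.26 ± 0.07, adjusted p = 0.00180; KO against normal -0.89 ± 0.07, adjusted p = 4.50e-10). Set against the median of chromosome 11 (-0.30), the difference between WT and normal cells was 0.04. Espl1 (separase) had 86.15, 83.25 and 82.7 CPM in KO cells, 145, 148 and 148 CPM in WT cells and 94.6, 87.7 and 87.2 CPM in normal liver cells. WT stood apart above both others (KO against WT -0.81 ± 0.04, adjusted p = 2.81e-11; WT against normal 0.72 ± 0.04, adjusted p = 5.09e-11). Its small difference between KO and normal cells (-0.09 ± 0.04, adjusted p = 0.0411) was lost without KO replicate 2 (adjusted p = 0.0987), KO replicate 3 (adjusted p = 0.105) or normal replicate 1 (adjusted p = 0.193).

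All 10 spindle motor and microtubule binding genes fell in KO against WT cells, while against normal liver cells WT cells had 5 higher, 3 lower and 2 not past the test. Kif15, a motor that helps keep spindle poles apart, had 75.9, 78.2 and 74.0 CPM in KO cells, 151, 143 and 138 CPM in WT cells and 46.7, 50.9 and 46.3 CPM in normal liver cells. It had the largest fall of this role (KO against WT -0.92 ± 0.04, adjusted p = 2.72e-11; WT against normal 1.59 ± 0.05, adjusted p = 7.32e-15; KO against normal 0.67 ± 0.05, adjusted p = 8.53e-11). Kif11, the main motor of pole separation, had 87.9, 90.7 and 83.6 CPM in KO cells, 145, 132 and 129 CPM in WT cells and 169, 188 and 174 CPM in normal liver cells. Normal libraries were the highest here (KO against WT -0.64 ± 0.05, adjusted p = 8.31e-09; WT against normal -0.38 ± 0.05, adjusted p = 2.25e-06; KO against normal -1.02 ± 0.04, adjusted p = 4.70e-14). Hmmr, a spindle assembly factor, had 55.5, 57.0 and 52.6 CPM in KO cells, 77.8, 73.9 and 74.15 CPM in WT cells and 117, 125 and 113 CPM in normal liver cells. Its order was the same, with KO lowest (KO against WT -0.46 ± 0.04, adjusted p = 2.19e-07; WT against normal -0.65 ± 0.05, adjusted p = 7.07e-10; KO against normal -1.11 ± 0.05, adjusted p = 2.59e-14).

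Ckap2, a microtubule-associated protein gene, had 28.5, 28.0 and 28.25 CPM in KO cells, 37.6, 35.15 and 31.25 CPM in WT cells and 63.3, 60.1 and 53.1 CPM in normal liver cells. It had the largest fall of the 50 between WT and normal liver cells (KO against WT -0.30 ± 0.07, adjusted p = 9.10e-04; WT against normal -0.76 ± 0.07, adjusted p = 2.91e-08; KO against normal -1.06 ± 0.06, adjusted p = 5.48e-12). Kif18b, a motor that shortens microtubules, and Nusap1, which bundles them, did not pass the test in WT against normal liver cells (-0.09 ± 0.05, adjusted p = 0.0997 for Kif18b and 0.10 ± 0.05, adjusted p = 0.0749 for Nusap1). Both fell in KO against WT cells, by 0.26 and 0.66 on the log2 scale. The remaining genes fell as well: Kif2c, a microtubule depolymerase, by 0.30, Kif4, a chromosome-bound motor, by 0.25, Tpx2, the activator of Aurora A on spindles, by 0.61, and Dlgap5, which stabilises kinetochore fibres, by 0.37. All 4 were higher in WT than in normal liver cells, with log2 fold changes of 0.70, 0.32, 0.11 and 1.13 in the same order of genes. Dlgap5 had 73.4, 72.6 and 77.0 CPM in KO cells, 96.1, 97.35 and 93.8 CPM in WT cells and 45.8, 42.0 and 44.5 CPM in normal liver cells, and KO stayed above normal (0.75 ± 0.05, adjusted p = 1.12e-11). Kif4 had 68.2, 72.25 and 68.85 CPM in KO cells, 80.3, 84.0 and 83.85 CPM in WT cells and 62.85, 69.0 and 67.8 CPM in normal liver cells, and its KO and normal libraries overlapped (0.07 ± 0.04, adjusted p = 0.1545).

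Central spindle and cytokinesis genes fell in 7 of 8 cases between KO and WT cells. Kif23, the motor subunit of centralspindlin, had 51.7, 49.2 and 47.2 CPM in KO cells, 119, 116 and 114 CPM in WT cells and 133, 137.5 and 129 CPM in normal liver cells. KO libraries stood far below both other groups (KO against WT -1.24 ± 0.04, adjusted p = 1.36e-12; WT against normal -0.19 ± 0.04, adjusted p = 4.10e-04; KO against normal -1.43 ± 0.04, adjusted p = 1.75e-16). Racgap1, the other centralspindlin subunit, had 136, 141.5 and 140.5 CPM in KO cells, 246, 239 and 252 CPM in WT cells and 195, 194 and 192 CPM in normal liver cells. Groups were apart with KO lowest and WT highest (KO against WT -0.82 ± 0.04, adjusted p = 2.03e-11; WT against normal 0.35 ± 0.04, adjusted p = 1.06e-07; KO against normal -0.47 ± 0.03, adjusted p = 9.25e-11). Kif20b, a kinesin needed late in cytokinesis, had 71.7, 69.75 and 65.9 CPM in KO cells, 124.5, 119 and 113 CPM in WT cells and 165.5, 170.3 and 150 CPM in normal liver cells. Normal libraries were highest (KO against WT -0.78 ± 0.04, adjusted p = 4.89e-10; WT against normal -0.44 ± 0.05, adjusted p = 3.66e-07; KO against normal -1.23 ± 0.05, adjusted p = 1.06e-14). Cep55, a midbody protein of abscission, had 56.0, 52.6 and 54.0 CPM in KO cells, 87.5, 78.5 and 81.4 CPM in WT cells and 125, 128 and 127 CPM in normal liver cells. Its order was likewise KO, WT and normal from low to high (KO against WT -0.61 ± 0.05, adjusted p = 1.80e-08; WT against normal -0.61 ± 0.04, adjusted p = 9.66e-10; KO against normal -1.22 ± 0.04, adjusted p = 4.34e-16).

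Prc1, which cross-links antiparallel microtubules, was the exception of this role with 204, 203 and 198 CPM in KO cells, 222, 211 and 206 CPM in WT cells and 142, 149 and 135 CPM in normal liver cells. It lies on chromosome 7, whose tested genes had a median log2 fold change of 0.24 in KO against WT cells. Every KO library was below every WT library, but the difference did not pass the test (-0.08 ± 0.04, adjusted p = 0.0557). Without WT replicate 3 it passed (adjusted p = 0.0175), and both groups were above normal (WT against normal 0.59 ± 0.04, adjusted p = 1.35e-09; KO against normal 0.51 ± 0.04, adjusted p = 2.13e-10). Kif20a, a kinesin of the central spindle, fell in KO against WT cells (-0.69 ± 0.03, adjusted p = 1.12e-10) and did not pass in WT against normal cells (-0.01 ± 0.04, adjusted p = 0.803), with libraries that nevertheless did not overlap. Ect2, the activator of the contractile ring, and Anln, its scaffold, fell by 0.64 and 0.73 on the log2 scale in KO against WT cells. Between WT and normal cells the 2 had different signs, with -0.13 ± 0.05, adjusted p = 0.01435 for Ect2 and 0.64 ± 0.04, adjusted p = 2.04e-11 for Anln, and the Ect2 call was lost without WT replicate 3 (adjusted p = 0.0772).

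Top2a, the topoisomerase that untangles chromosomes, had 594, 619 and 595 CPM in KO cells, 1072, 1043 and 1007 CPM in WT cells and 610.0, 679 and 626 CPM in normal liver cells. WT libraries were far above both others (KO against WT -0.79 ± 0.03, adjusted p = 1.71e-11; WT against normal 0.71 ± 0.04, adjusted p = 3.91e-11), and KO overlapped normal. That last call (-0.08 ± 0.04, adjusted p = 0.0423) was lost without any 1 of KO replicates 1 and 3 and normal replicate 2 (adjusted p = 0.108 to 0.232). Mki67, the proliferation antigen that coats mitotic chromosomes, had 423, 442 and 412 CPM in KO cells, 594, 589 and 593 CPM in WT cells and 467, 493 and 448 CPM in normal liver cells. It was highest in WT cells (KO against WT -0.48 ± 0.03, adjusted p = 6.32e-09; WT against normal 0.34 ± 0.04, adjusted p = 2.30e-07; KO against normal -0.14 ± 0.04, adjusted p = 0.00171).

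Chromosome position moved with some of these values. In KO against WT cells the 760 tested genes of chromosome 4 had a median log2 fold change of 0.49, and the 3 members there, Cdc20, Kif2c and Cdca8, ran from -0.30 to 0.28, with the 1 rise and the smallest of the 47 falls among them. Chromosome 7, where Bub3 and Prc1 lie, had a median of 0.24. Its 4 members, Plk1, Mki67, Prc1 and Bub3, ran from -0.68 to -0.02. Chromosome 9 had a median of -0.25, and its 6 members, Ccnb2, Kif23, Kif15, Anln, Spc24 and Ttk, ran from -1.40 to -0.63. Cenpa, the 1 member on chromosome 5, fell as much as Ccnb2 while that chromosome's median was -0.10. In WT against normal liver cells chromosome 19 had a median of -0.92, and the 4 members there, Incenp, Kif11, Kif20b and Cep55, all fell. Set against that median they had the opposite sign, at 0.50 for Incenp, 0.54 for Kif11, 0.48 for Kif20b and 0.31 for Cep55. With each gene set against the median of its chromosome, 47 members stayed lower in KO than in WT cells. Between WT and normal liver cells 4, not 10, stayed lower. No p-value was recomputed here: a call was kept where the sign held, so calls could be lost but not gained.

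Among genes of the same processes outside the 50, falls in KO against WT cells also outnumbered rises, by a smaller margin. Of 187 tested genes in 9 such lists, 131 fell (70.1%) and 21 rose (11.2%), with a median log2 fold change of -0.31. Over all tested genes, 32.2% fell and 32.3% rose. Among inner kinetochore and CENP-A loading genes, 31 of 36 fell and 2 rose, and Hjurp, the chaperone that loads CENP-A, averaged 321 ± 4.85 CPM in KO cells and 699 ± 8.39 CPM in WT cells (SD, n = 3 each; log2 fold change -1.13 ± 0.03, adjusted p = 1.68e-13). Condensin genes fell in 7 of 8 cases with none higher, APC/C genes in 10 of 17 with 3 higher and cohesin genes in 9 of 14 with 2 higher. Centrosome genes were more divided, with 8 of 20 lower and 4 higher. DNA replication genes, which mark S phase and not mitosis, fell in 25 of 30 cases with none higher. Tk1, the thymidine kinase of S phase, averaged 40.8 ± 1.76 CPM in KO cells and 92.8 ± 1.92 CPM in WT cells (SD, n = 3 each; log2 fold change -1.19 ± 0.04, adjusted p = 4.07e-12). MuvB, DREAM and E2F genes fell in 10 of 18 cases and rose in 5, and Rbbp4, a histone-binding MuvB subunit, was among those that rose (log2 fold change 0.53 ± 0.03, adjusted p = 1.08e-09). Fewer genes of the 9 lists stayed higher once each was set against the median of its chromosome, a value not given here for Rbbp4.

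Against normal liver cells the same 188 genes had 114 higher and 53 lower in WT cells, with a median of 0.29, and 84 higher and 80 lower in KO cells. These are 60.6% and 28.2% for WT cells, against 43.9% and 43.3% of all tested genes, and 44.7% and 42.6% for KO cells, which is near the 44.5% and 43.2% of all tested genes. DNA replication genes had 23 of 30 higher and 6 lower in WT cells, and 13 higher and 12 lower in KO cells. Ccne1, the cyclin of S phase entry, averaged 18.2 ± 2.04 CPM in KO cells, 20.0 ± 0.995 CPM in WT cells and 2.93 ± 0.389 CPM in normal liver cells (SD, n = 3 each). It rose in both comparisons (log2 fold change 2.63 ± 0.12 for KO and 2.77 ± 0.11 for WT cells). Wee1, the kinase that restrains Cdk1, averaged 57.6 ± 2.15 CPM in KO cells, 66.3 ± 2.17 CPM in WT cells and 16.9 ± 1.54 CPM in normal liver cells (SD, n = 3 each), and rose in both comparisons too. Nek6, a mitotic kinase, moved the other way (log2 fold change -2.18 ± 0.05 for KO and -1.78 ± 0.05 for WT cells).

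The last comparison set KC2 against KC1 Kupffer cells. Most of the 50 genes were higher in KC2, at low levels. Of 48 tested genes, 35 rose, 1, Pttg1, fell and 12 did not pass the test. Cdc25c and Kif18b were too low to be tested. Of 12774 tested genes, 59.8% were called, 31.9% higher and 27.9% lower. The median log2 fold change was 1.51, against 0.029 over all tested genes, and 31 genes rose at least 2-fold, against 22.1% of all tested genes, and none fell as much, against 14.6%. The 48 tested genes are those that passed a filter on low counts, which a gene high in 1 group alone can pass. Summed levels were 578, 507, 598 and 473 CPM in the KC2 libraries, against 386, 395, 382 and 364 CPM in the KC1 libraries. The largest part of these sums was Bub3, which did not pass the test and averaged 119.9 CPM in KC2 and 113.4 CPM in KC1. The median of the 50 group means was 5.40 CPM in KC2 and 1.90 CPM in KC1, and 10 genes in KC2 and 4 in KC1 averaged at least 10 CPM. All KC2 libraries were above all KC1 libraries for 27 of the 48, below for 1 and overlapping for 20, against 29.2% wholly above and 27.6% wholly below over all tested genes.

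KC2 libraries also differed from KC1 libraries in markers of other cells, and KC2 replicate 1 stood apart. Summed over 12 macrophage and Kupffer cell markers, the level was 2409, 14177, 14596 and 15694 CPM in KC2, against 32880, 42394, 36640 and 35203 CPM in KC1, and 6 of the 12 fell with none higher. Over 10 sinusoidal endothelial markers it was 14525, 10132, 9529 and 10118 CPM in KC2, against 404 to 523 CPM in KC1, with 9 of 10 higher. T, NK and B cell markers summed to 980, 332, 461 and 366 CPM in KC2, against 15.7 to 27.8 CPM in KC1, with 12 of 12 tested higher. Cholangiocyte markers summed to 165 to 820 CPM in KC2 and 7.85 to 16.7 CPM in KC1, with 6 of 6 tested higher. Monocyte and neutrophil markers ran from 811 to 4462 CPM in KC2 and from 936 to 1407 CPM in KC1, with 7 of 9 tested higher and 1 lower. Hepatocyte, erythroid and stellate markers ran from 637 to 1557, 107 to 243 and 23.2 to 35.4 CPM in KC2, and from 453 to 815, 81.3 to 239 and 15.4 to 27.9 CPM in KC1. Of these, 7 of 12 tested hepatocyte markers were higher and 1 lower, 0 of 5 erythroid markers higher and 1 lower, and 3 of 8 stellate markers higher and 1 lower. Among defining markers, Epcam, Cldn4 and Ncr1 had no count in KC1, and no listed marker with a row was at 0 in KC2. The part of these other cells in the mitosis gene differences was not tested. Without KC2 replicate 1, 29 of the 48 genes rose and 1 fell, and over all fits that left out 1 library between 25 and 33 rose.

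**Figure D4:**
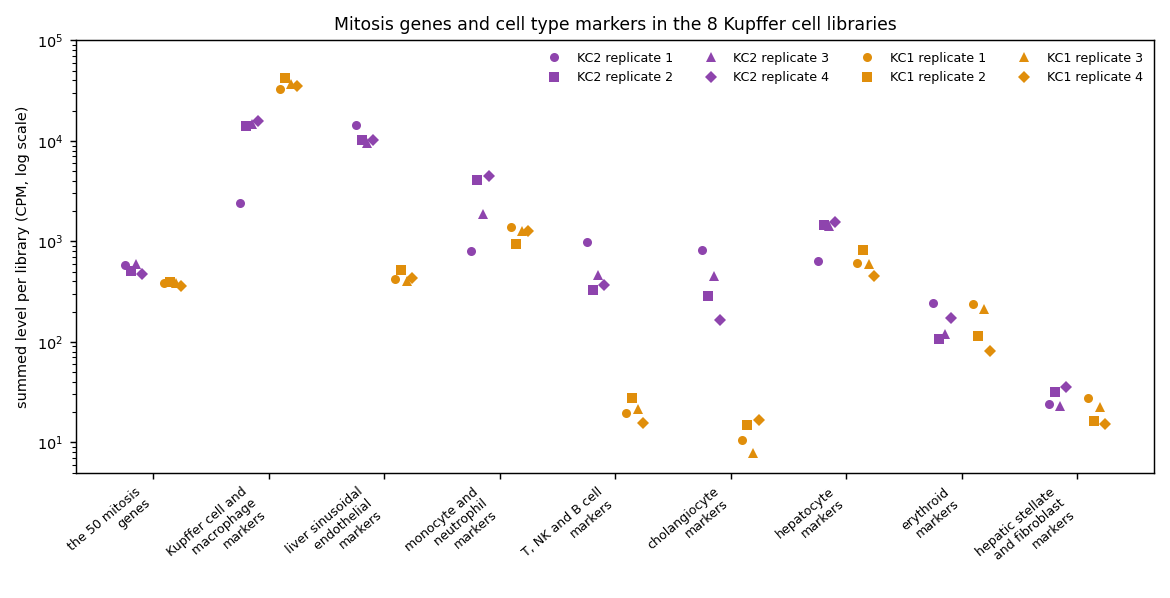
Summed level per library in CPM (log scale) of the 50 mitosis genes and of 8 lists of cell type markers, in the KC2 (purple, left) and KC1 (orange, right) libraries, with 1 symbol shape per replicate number. KC2 replicate 1 has the lowest macrophage sum (2409 CPM) and the highest lymphocyte sum (980 CPM).

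Mitotic entry genes rose in 8 of 9 tested cases. Ccnb1 had 7.27, 3.995, 10.1 and 2.55 CPM in the KC2 libraries, against 0.8287, 1.37, 0.805 and 1.04 CPM in the KC1 libraries. The groups did not overlap (2.56 ± 0.47, adjusted p = 8.58e-04; here and below the log2 fold change ± SE of KC2 over KC1, with n = 4 libraries each). Cdk1 had 14.2, 9.58, 15.1 and 12.9 CPM in the KC2 libraries, against 5.87, 5.54, 5.03 and 3.395 CPM in the KC1 libraries. KC2 was again wholly above KC1 (1.38 ± 0.24, adjusted p = 5.65e-04). Nek2 had 3.71, 2.29, 9.71 and 2.07 CPM in the KC2 libraries, against 1.73, 0.587, 0.537 and 0.208 CPM in the KC1 libraries. KC2 replicate 3 stood highest, and the groups did not overlap (2.53 ± 0.70, adjusted p = 0.00937). Ccna2 had 10.7, 6.55, 7.75 and 6.25 CPM in the KC2 libraries, against 1.29, 2.20, 1.09 and 1.57 CPM in the KC1 libraries, also without overlap (2.33 ± 0.33, adjusted p = 1.32e-04). Ccnb2 and Cdc25b rose by 1.84 and 1.33 on the log2 scale.

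Plk1 and Foxm1 rose although their libraries overlapped. Plk1 had 7.97, 4.465, 5.325 and 1.40 CPM in the KC2 libraries, against 1.38, 1.43, 0.939 and 1.455 CPM in the KC1 libraries. KC2 replicate 4 lay among the KC1 values (1.88 ± 0.49, adjusted p = 0.00712). Foxm1 had 3.36, 0.5875, 2.385 and 3.22 CPM in the KC2 libraries, against 0.345, 0.847, 0.4025 and 0.416 CPM in the KC1 libraries. KC2 replicate 2 was below the highest KC1 library (2.23 ± 0.60, adjusted p = 0.008325). Aurka had 7.22, 3.47, 5.49 and 5.17 CPM in the KC2 libraries, against 6.215, 6.26, 6.64 and 4.365 CPM in the KC1 libraries. The groups overlapped and did not pass the test (-0.14 ± 0.28, adjusted p = 0.694), and the sign turned without KC2 replicate 2 (0.02). Of the untested genes, Cdc25c had 0.150, 0, 0 and 0.426 CPM in the KC2 libraries, against 0.207, 0.587, 0.201 and 0 CPM in the KC1 libraries, and no difference was detectable at this depth.

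In the passenger complex, Aurkb had 10.8, 8.64, 13.0 and 6.57 CPM in the KC2 libraries, against 4.63, 2.80, 3.42 and 2.15 CPM in the KC1 libraries. KC2 was wholly above KC1 (1.59 ± 0.31, adjusted p = 0.001285), and Birc5 rose too (1.96 ± 0.47, adjusted p = 0.00410). Incenp had 25.7, 43.2, 38.7 and 21.0 CPM in the KC2 libraries, against 44.1, 51.5, 33.6 and 47.5 CPM in the KC1 libraries, with overlapping libraries that did not pass the test (-0.46 ± 0.23, adjusted p = 0.112). Without KC2 replicate 2 it passed as lower in KC2 (adjusted p = 0.0387). The rise of Cdca8 (0.89 ± 0.35, adjusted p = 0.0497) was lost in 7 of the 8 fits that left out 1 library, the exception being the one without KC2 replicate 4.

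Checkpoint genes were the role with the fewest calls, at 1 of 5. Bub3 had 116, 124, 119 and 120.2 CPM in the KC2 libraries, against 104, 107.5, 134 and 108 CPM in the KC1 libraries. Both groups lay at like levels with overlap (0.08 ± 0.12, adjusted p = 0.570). Mad2l1 had 7.32, 7.70, 8.21 and 5.17 CPM in the KC2 libraries, against 5.04, 7.11, 6.51 and 5.06 CPM in the KC1 libraries. Its groups overlapped and did not pass the test (0.26 ± 0.24, adjusted p = 0.373). Bub1 had 2.36, 0, 2.16 and 0.669 CPM in the KC2 libraries, against 0.276, 0.196, 1.01 and 1.25 CPM in the KC1 libraries. These rest on 97 counts over the 4 KC2 libraries and 40 over the 4 KC1 libraries, and the groups overlapped (0.93 ± 0.97, adjusted p = 0.427). Bub1b had 11.8, 13.9, 9.04 and 2.80 CPM in the KC2 libraries, against 7.39, 5.215, 5.43 and 2.91 CPM in the KC1 libraries. It did not pass with all libraries (0.84 ± 0.45, adjusted p = 0.128) and did without KC2 replicate 4 (adjusted p = 0.0106). Ttk passed (2.04 ± 0.80, adjusted p = 0.0468), a call lost without any 1 library other than KC1 replicate 1 (adjusted p = 0.0521 to 0.125).

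Kinetochore genes rose in 7 of 7 cases. Cenpa had 47.3, 37.4, 45.0 and 40.1 CPM in the KC2 libraries, against 2.49, 3.52, 3.56 and 2.56 CPM in the KC1 libraries. It had the largest rise of the 48, with the groups far apart (3.80 ± 0.18, adjusted p = 1.44e-07). Spc24 rose less (0.73 ± 0.20, adjusted p = 0.00916), and Cenpf, Ndc80 and Spc25 rose by 1.95, 1.88 and 1.58 on the log2 scale. The calls of Cenpe (1.12 ± 0.38, adjusted p = 0.02675) and Nuf2 (2.15 ± 0.83, adjusted p = 0.0451) were lost without 1 library in several fits, with adjusted p of at most 0.0779 for Cenpe and 0.113 for Nuf2.

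Among anaphase genes, Cdc20 had 14.7, 8.40, 9.49 and 4.44 CPM in the KC2 libraries, against 2.555, 4.43, 3.96 and 2.425 CPM in the KC1 libraries. Every KC2 library was above every KC1 library, though KC2 replicate 4 exceeded KC1 replicate 2 only narrowly (1.47 ± 0.38, adjusted p = 0.006215). Ube2c had 9.58, 7.56, 7.24 and 7.10 CPM in the KC2 libraries, against 2.46, 2.25, 3.18 and 2.85 CPM in the KC1 libraries, with the groups apart (1.56 ± 0.25, adjusted p = 3.11e-04). Espl1 had 5.77, 7.52, 7.655 and 3.10 CPM in the KC2 libraries, against 1.31, 0.587, 0.537 and 0.762 CPM in the KC1 libraries. Its rise was among the largest (2.90 ± 0.43, adjusted p = 2.07e-04). Pttg1 had 70.2, 66.5, 76.3 and 69.9 CPM in the KC2 libraries, against 123, 100.4, 102 and 117.5 CPM in the KC1 libraries. It was the 1 member called lower, with every KC2 library below every KC1 library (-0.65 ± 0.11, adjusted p = 6.31e-04), and the fall held without any 1 library.

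Spindle genes rose in 7 of 9 tested cases. Kif4 had 5.92, 6.11, 4.16 and 5.41 CPM in the KC2 libraries, against 0.345, 0.587, 0.939 and 0.416 CPM in the KC1 libraries. The groups were far apart (3.22 ± 0.40, adjusted p = 5.45e-05). Kif11 and Tpx2 also rose in every fit that left out 1 library, with 1.74 ± 0.43, adjusted p = 0.00481 for Kif11 and 1.37 ± 0.28, adjusted p = 0.00157 for Tpx2. Kif2c had 2.81, 1.47, 0.888 and 2.80 CPM in the KC2 libraries, against 3.18, 2.87, 2.62 and 3.19 CPM in the KC1 libraries. Its libraries overlapped and did not pass the test (-0.57 ± 0.42, adjusted p = 0.257). Kif15 had 2.31, 0.705, 3.61 and 0.973 CPM in the KC2 libraries, against 0.138, 1.565, 0.604 and 0.277 CPM in the KC1 libraries. It did not pass either (1.54 ± 0.76, adjusted p = 0.103), and did without KC1 replicate 2 (adjusted p = 0.0282). Kif18b, untested, had 2.41, 0, 0.166 and 0.608 CPM in the KC2 libraries, against 0, 0.391, 0.537 and 0.139 CPM in the KC1 libraries. The rises of Hmmr, Nusap1, Dlgap5 and Ckap2, between 1.21 and 2.12 on the log2 scale, each lost their call without 1 library or another, with the highest adjusted p at 0.0715 for Hmmr, 0.101 for Nusap1, 0.0723 for Dlgap5 and 0.0709 for Ckap2.

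Cytokinesis genes rose in 4 of 8 cases. Racgap1 had 18.3, 4.935, 20.4 and 12.4 CPM in the KC2 libraries, against 2.42, 2.28, 3.22 and 0.901 CPM in the KC1 libraries. KC2 was wholly above KC1, with KC2 replicate 2 the lowest of its group (2.66 ± 0.48, adjusted p = 7.29e-04). Kif20a and Prc1 rose by 1.38 and 1.48 on the log2 scale. Kif23 had 9.88, 28.1, 18.8 and 20.3 CPM in the KC2 libraries, against 9.53, 15.3, 7.78 and 9.91 CPM in the KC1 libraries. Its call (0.86 ± 0.31, adjusted p = 0.0357) was lost without any 1 library other than KC2 replicate 1 or KC1 replicate 2 (adjusted p = 0.0617 to 0.114). Kif20b, Ect2, Anln and Cep55 did not pass the test, and the libraries of each overlapped. Ect2 had 3.46, 7.64, 2.996 and 0.912 CPM in the KC2 libraries, against 2.90, 2.15, 2.21 and 0.762 CPM in the KC1 libraries (0.90 ± 0.60, adjusted p = 0.219). Anln had 2.61, 0.881, 3.77 and 1.03 CPM in the KC2 libraries, against 1.105, 1.695, 0.805 and 0.208 CPM in the KC1 libraries (1.12 ± 0.66, adjusted p = 0.1685). Cep55 had 2.26, 0.294, 0.0555 and 3.28 CPM in the KC2 libraries, against 0.5525, 0.978, 0.872 and 0.208 CPM in the KC1 libraries (1.16 ± 0.95, adjusted p = 0.311). Kif20b gave 0.30 ± 0.33, adjusted p = 0.4585. Top2a had 10.1, 10.3, 15.2 and 6.81 CPM in the KC2 libraries, against 1.865, 4.04, 2.55 and 1.87 CPM in the KC1 libraries, with the groups apart (2.03 ± 0.34, adjusted p = 4.75e-04). Mki67 rose (0.72 ± 0.26, adjusted p = 0.0354), a call lost without any 1 library other than KC2 replicate 2 or KC1 replicate 2 (adjusted p = 0.0566 to 0.0962).

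**Figure D5:**
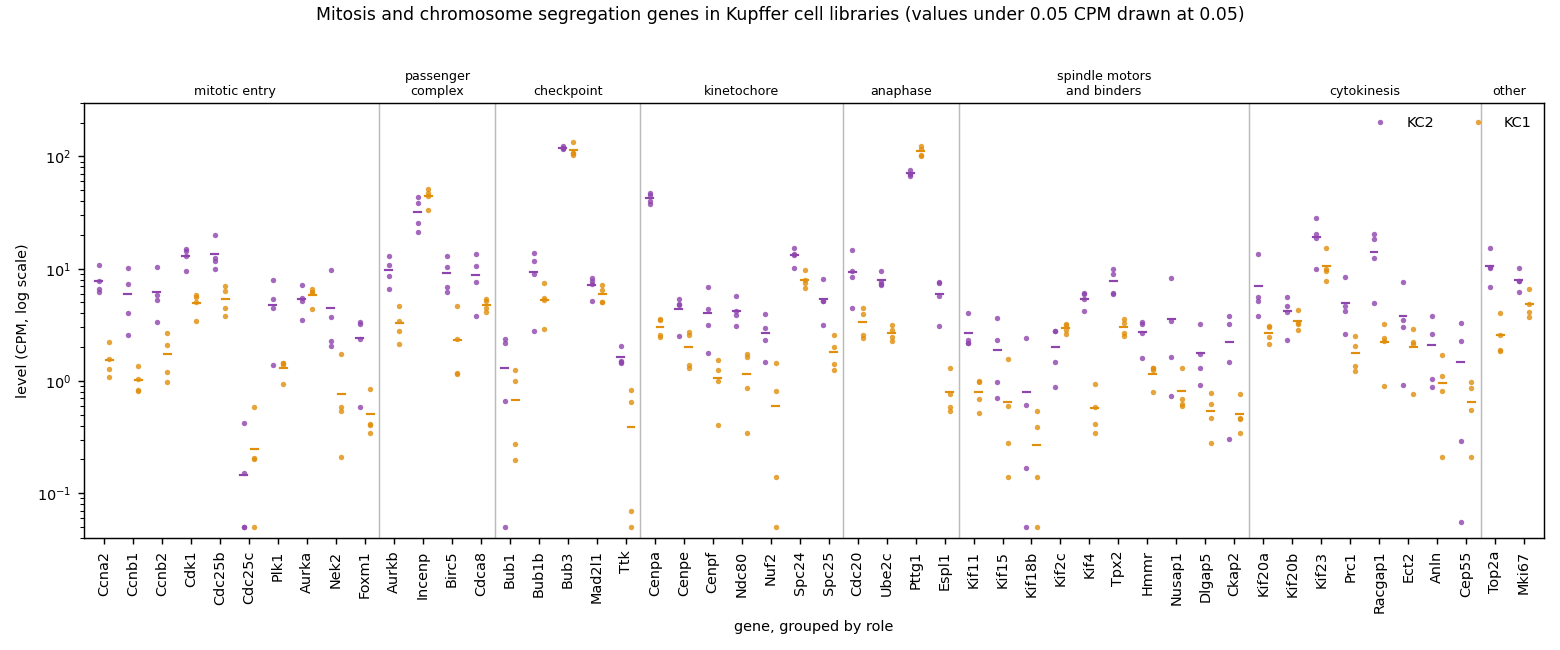
Level of each of the 50 genes in CPM (log scale) in every Kupffer cell library, with KC2 (purple) left of KC1 (orange), points for libraries and short lines for group means. Values under 0.05 CPM are drawn at 0.05. Cenpa shows the widest gap, and Pttg1 is the gene whose KC2 points all lie below its KC1 points.

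Of 180 tested genes of the same processes outside the 50, 76 rose (42.2%) and 26 fell (14.4%) in KC2, with a median log2 fold change of 0.40. Over all tested genes, 31.9% rose and 27.9% fell. DNA replication genes rose in 16 of 30 cases and fell in 3. Rrm1, the large subunit of ribonucleotide reductase, averaged 45.9 ± 3.51 CPM in KC2 and 16.3 ± 3.52 CPM in KC1 (SD, n = 4 each; log2 fold change 1.49 ± 0.17, adjusted p = 3.23e-05). Tk1 went the other way, at 16.4 ± 6.32 CPM in KC2 and 37.7 ± 3.66 CPM in KC1 (log2 fold change -1.20 ± 0.24, adjusted p = 0.00156). Condensin genes rose in 6 of 8 cases, and Smc4, a condensin ATPase, averaged 56.9 ± 4.91 CPM in KC2 and 12.8 ± 0.972 CPM in KC1 (SD, n = 4 each; log2 fold change 2.16 ± 0.13, adjusted p = 3.41e-07). Centrosome genes were even, with 4 of 19 higher and 4 lower (21.1% each), below the shares over all tested genes. MuvB, DREAM and E2F genes rose in 8 of 18 cases (44.4%) and fell in 2 (11.1%). E2f7 had the largest change of this list, at 8.36 CPM in KC2 and 0.182 CPM in KC1 (log2 fold change 5.44 ± 0.57, adjusted p = 1.76e-05). E2f2 rose as well (log2 fold change 3.17 ± 0.43, adjusted p = 1.13e-04) and E2f1 fell (log2 fold change -1.45 ± 0.17, adjusted p = 4.47e-05).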

How the data were processed

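Libraries were poly(A)-selected and stranded, from TRIzol-extracted RNA, per the labels' protocols. The authors deposited expected counts per gene in 3 tables. Per the submitters' processing notes, FastQC, HISAT and RSEM were used with build mm10. Versions and annotation: not given in the sources used here. The early HCC tables list only genes with a count in KO or WT cells, and 1665 of them had none in normal liver cells. Expected counts were rounded and fitted with edgeR 4.0.16 in R 4.3.3 (quasi-likelihood F test, TMM, filterByExpr), using the 2 groups compared. Calls used a Benjamini-Hochberg adjusted p under 0.05 over all tested genes. The code was tested on simulated counts. Levels are TMM-scaled CPM, on 1 scale for the 9 early HCC and normal libraries and 1 for the 8 Kupffer libraries. Common biological coefficients of variation were 0.034 (KO against WT), 0.0371 (WT against normal), 0.0299 (KO against normal) and 0.267 (KC2 against KC1). The deposited counts carry no molecular identifiers, and RSEM splits reads shared between genes by a model. No source says that counting used strand, so values of overlapping genes are uncertain.

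The members, their roles, the other lists and the rule for naming genes were chosen with earlier results of these data known. Values in every library are given, per comparison, for the 8 largest called changes, members called against the majority or not past the test (up to 8), and 12 fixed genes (Ccnb1, Cdk1, Plk1, Aurka, Aurkb, Bub1, Mad2l1, Cdc20, Ube2c, Pttg1, Foxm1 and Top2a). Lists get counts and medians with no test. Alternatives were DESeq2 1.42.0, RLE scaling, no filter, a replicate block, leaving out each library, 1 fit of all 9 libraries, values set against the chromosome median, limma 3.58.1 voom with sample weights (Kupffer cells) and other promoter windows. Promoters and chromosomes came from RefSeq GRCm38.p6, which held 99.7% of gene identifiers.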

Additional observations from a re-analysis of the deposited data

Results flagged for a closer look

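Within the groups of 4 Kupffer cell libraries, 7 of 102 sets of values had 1 library far from the other 3 by Dixon's test (6.86%), and chance alone gives about 5%. Ttk had 2.07 CPM in KC2 replicate 4, against 1.45 to 1.498 CPM in the other KC2 libraries. Kif11 had 4.06 CPM in KC2 replicate 1, against 2.16 to 2.31 CPM in the others. Plk1 had 0.939 CPM and Hmmr 0.789 CPM in KC1 replicate 3, both below the rest of KC1 (1.38 to 1.46 CPM for Plk1 and 1.25 to 1.32 CPM for Hmmr). Bub3 had 133.6 CPM in the same library, against 104.1 to 108.3 CPM in the other KC1 libraries. Foxm1 had 0.847 CPM and Nusap1 1.30 CPM in KC1 replicate 2, both above the rest of KC1 (0.345 to 0.416 CPM for Foxm1 and 0.604 to 0.691 CPM for Nusap1). Apart from Bub3, none of these genes reached 10 CPM in a Kupffer library.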

How the results depend on the processing

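Between KO and WT cells, the 47 falls held under every alternative, though setting values against chromosome medians could only drop calls, not add them. Set against chromosome medians, no member was called higher (0, with Cdca8 at -0.20), 13 other genes of the same processes were, and the members' median was -0.54; without 1 library it ran from -0.61 to -0.56. Against normal liver cells, the WT median was 0.56 with RLE scaling and 0.52 to 0.57 without 1 library, and set against chromosome medians 4 members were lower. The sign then turned for Foxm1 (0.19), Aurkb (0.24), Incenp (0.50), Mad2l1 (0.24), Pttg1 (0.04), Kif11 (0.54), Kif18b (0.21), Tpx2 (-0.08), Nusap1 (-0.09), Kif20a (0.56), Kif20b (0.48) and Cep55 (0.31). It also turned for Kif20a with RLE scaling (0.01) and for Aurkb without WT replicate 1 (0.02, in a range over libraries left out of -0.10 to 0.02). Against chromosome medians the KO median over normal was 0.01, and Incenp (0.24), Birc5 (0.03), Spc25 (-0.06), Cdc20 (-0.08), Kif18b (0.03) and Top2a (0.31) turned; leaving out 1 library gave -0.12 to -0.09. Between KC2 and KC1, 1 to 2 members were lower without 1 library, Aurka turned without KC2 replicate 2 (0.02, in a range of -0.32 to 0.02), and voom with weights turned Bub1 (-0.50) and Cep55 (-0.11). TTTGAA was in 34.1% and TTTAAA in 7.32% of member promoters within 150 bases before the start, against 9.3% and 7.29% of all, and TTTGAA in 70.7%, against 7.94%, from 100 before to 50 after, a window chosen after seeing the data. The cause of these changes was not tested.

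Replicate numbers gave no clear pairing of the libraries, and with so few libraries in a group this check cannot exclude it. Same-numbered early HCC and normal libraries correlated at -0.25 to 0.35 and Kupffer libraries at -0.03 to 0.04. Replicate 3 of KO and WT had the highest value (0.35, against at most -0.12 with other WT libraries). Same-numbered KO and normal libraries had 0.06, 0.17 and 0.06, against at most 0.02, -0.08 and 0.05 with other normal libraries. With a replicate block, 48 members were lower in KO than in WT cells, with Prc1 added (-0.08, adjusted p = 0.0368), and 26, in place of 35, were higher in KC2, while the counts against normal liver cells did not change (35 and 10 for WT, 21 and 27 for KO). Low counts limit the Kupffer comparison, where 10 of the 35 rises were lost without 1 library or another.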
